A study of Mus musculus with 8 samples.

Results

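The genes described here encode components of 6 signalling pathways that pattern the developing brain: Wnt, FGF, BMP and TGF-beta, Hedgehog, Notch and IGF. They were chosen by symbol alone, from the probe sets with exactly 1 gene symbol in the platform annotation. That symbol begins with or equals a family name (Wnt, Fzd, Sfrp, Rspo, Lrp5, Lrp6, Dkk, Axin, Fgf, Bmp, Gli1 to Gli3, Ptch, Smo, Notch, Dll, Jag, Tgfb, Smad or Igf). This gave 78 probe sets of 60 genes among the 22511 probe sets of the array, which carry 9607 different single symbols. The Wnt pathway held 27 probe sets of 21 genes, BMP and TGF-beta 22 of 17, FGF 14 of 12, IGF 9 of 5, Hedgehog 4 of 3 and Notch 2 of 2. A symbol match is not always a pathway component: 4 of the probe sets belong to Fzd10os, Fgf2os and Bmp2k, which share only a name with a ligand or receptor, and Fgf12, Fgf14, Igf2bp1 and Igf2bp3 encode intracellular proteins.

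Each pathway starts with a secreted or membrane-bound ligand and a receptor on the receiving cell. Wnt ligands bind Frizzled receptors and are boosted by R-spondins and held back by secreted Sfrp and Dkk proteins. Hedgehog ligands relieve the block of Patched on Smoothened and so change the processing of the Gli factors, and BMP and TGF-beta ligands act through paired receptor kinases that phosphorylate Smad proteins. Notch receptors are cleaved after contact with Delta or Jagged ligands on a neighbouring cell, while FGF and IGF ligands act through receptor tyrosine kinases. In the embryonic brain these signals set regional identity and the balance between progenitor division and neuron formation.

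RNA came from neonatal cortex (labelled forebrain), neonatal cerebellum, and whole brain of embryos at 15.5 and 13.5 days post coitum (dpc), with 2 arrays per context. Every sample was a T9H/+ heterozygote, T9H being a reciprocal translocation between chromosomes 7 and 15. In each context 1 sample had the proximal part of chromosome 7 duplicated from the mother and that of chromosome 15 from the father (called maternal-7). The other had the reverse (called paternal-7), so each sample carried a duplication of both segments and no array came from a mouse without one. The sample titles name the parent of each duplication and not the number of copies of a segment, so no gain in dose is read from them. The design states that there were no biological replicates. The spread behind each test is how much the difference between the 2 duplications varied among the contexts, moderated with the spread of the other probe sets. The p-values measure only that spread.

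The values are linear MAS5 signals, with 1 trimmed mean (499.9) shared by all arrays and array medians from 229.8 to 285.7. On the 8 arrays, 48 to 58 of the 78 probe sets lay above the array's median signal, with 48 to 51 on the neonatal arrays and 52 to 58 on the embryonic ones. A probe set was tested when it lay above the median on at least 2 arrays, which 59 of the 78 did (75.6%, against 58.7% of all probe sets), and 44 of them did so on all 8 arrays. The labels of the duplications were borne out by Snhg14, a transcript made from the paternal chromosome 7: its brightest probe set read 0.262 to 33.9 on the maternal-7 arrays and 667 to 2372 on the paternal-7 arrays. The 5 genes used as markers of cortical neurons (Neurod2, Bcl11b, Emx1, Slc17a7 and Cux2) summed to 18438 and 18732 in cortex against 5636 and 6100 in cerebellum. The 3 markers of cerebellum (Zic1, Lhx9 and Tfap2b) summed to 12084 and 13347 in cerebellum against 4413 and 7165 in cortex. Most of that gap was Tfap2b (7313 and 6639 in cerebellum, 339 and 363 in cortex), the only 1 of the 3 called. Zic1 overlapped between the regions (4795 and 4437 against 6283 and 3646). Cux2 of the cortical list overlapped as well (1073 and 563 in cerebellum, 1036 and 844 in cortex).

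The start-site sequences of 4 genes that carry the main differences are shown to give the kind of promoter each has. Each line holds the 250 bases upstream of the annotated start, read 5′ to 3′ on the gene's strand from RefSeq (build GRCm38.p6), with every CpG dinucleotide in capitals. Igf1, Jag1 and Gli3 had higher signal at 13.5 dpc than in any other context, and Fgf12 had lower signal there. The regions are chr10:87860861-87861110 on the plus strand for Igf1, chr2:137116521-137116770 on the minus strand for Jag1, chr13:15463473-15463722 on the plus strand for Gli3 and chr16:28564952-28565201 on the minus strand for the second of 4 listed Fgf12 starts.
Igf1: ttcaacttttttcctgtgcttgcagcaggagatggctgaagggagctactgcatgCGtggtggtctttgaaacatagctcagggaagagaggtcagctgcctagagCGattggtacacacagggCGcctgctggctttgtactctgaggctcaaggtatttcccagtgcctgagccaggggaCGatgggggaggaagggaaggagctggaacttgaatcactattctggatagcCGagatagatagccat
Jag1: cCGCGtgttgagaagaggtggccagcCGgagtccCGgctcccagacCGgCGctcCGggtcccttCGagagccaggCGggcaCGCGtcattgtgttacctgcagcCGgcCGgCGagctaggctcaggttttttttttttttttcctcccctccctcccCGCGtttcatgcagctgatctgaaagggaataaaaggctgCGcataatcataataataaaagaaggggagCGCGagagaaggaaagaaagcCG
Gli3: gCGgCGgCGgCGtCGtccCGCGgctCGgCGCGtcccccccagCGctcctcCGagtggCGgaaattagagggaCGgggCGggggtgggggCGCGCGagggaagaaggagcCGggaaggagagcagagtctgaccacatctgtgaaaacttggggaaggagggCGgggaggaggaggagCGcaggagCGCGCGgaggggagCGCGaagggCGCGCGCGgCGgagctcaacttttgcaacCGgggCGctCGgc
Fgf12: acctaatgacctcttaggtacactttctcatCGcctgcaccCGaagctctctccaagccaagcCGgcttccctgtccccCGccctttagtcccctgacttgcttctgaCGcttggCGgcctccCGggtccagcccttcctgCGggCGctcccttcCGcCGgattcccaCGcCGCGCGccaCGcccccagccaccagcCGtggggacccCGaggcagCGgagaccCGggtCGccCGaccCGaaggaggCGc
The Igf1 window held 5 CpGs and the Jag1, Gli3 and Fgf12 windows 20, 34 and 24, against a median of 6 in the same window over all 32851 listed promoters. In all, 46 of the 60 genes matched 54 listed promoters. Over the 300 bases listed for each (250 before and 50 after the start), the median was 25.5 CpGs against 7 in all promoters, and the median GC content was 66.4% against 52.7%. The 4 Fgf12 starts held 18, 34, 29 and 22 CpGs over those bases, the printed second start the most. Which of them is used in these tissues was not tested. Neither the Gli motif GACCACCCA nor the TCF motif CTTTGAT was found on either strand of the 54 promoters, and they stood in 0.253% and 3.73% of all promoters. The RBPJ motif GTGGGAA stood in 4 of the 54 (7.41%, against 6.38% of all), those of Bmpr2, Smad5, Wnt9a and the Fgf12 start printed above, where it lies on the opposite strand. The arrays' files name no genome build, and the sequences serve here only as a description.

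Most of these probe sets had their highest signal at 13.5 dpc. Of the 59 tested probe sets, 41 had their highest mean log2 signal in 13.5 dpc brain (69.5%, against 41.1% of all tested probe sets), 6 in 15.5 dpc brain, 7 in neonatal cortex and 5 in neonatal cerebellum. A difference among the 4 contexts passed limma's moderated F test at an adjusted p below 0.05 for 26 of the 59 probe sets (20 genes), where 21.7% of all tested probe sets passed. By pathway these were 8 of 20 Wnt, 6 of 10 FGF, 3 of 16 BMP and TGF-beta, 2 of 3 Hedgehog, 1 of 1 Notch and 6 of 9 IGF probe sets. Leaving out 1 array lowered the count in most cases, to 12 without the paternal-7 array of 13.5 dpc, 14 without either cortex array, 15 without the paternal-7 cerebellum array, 17 without the maternal-7 cerebellum array and 15 without the maternal-7 array of 13.5 dpc.

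**Figure D1:**
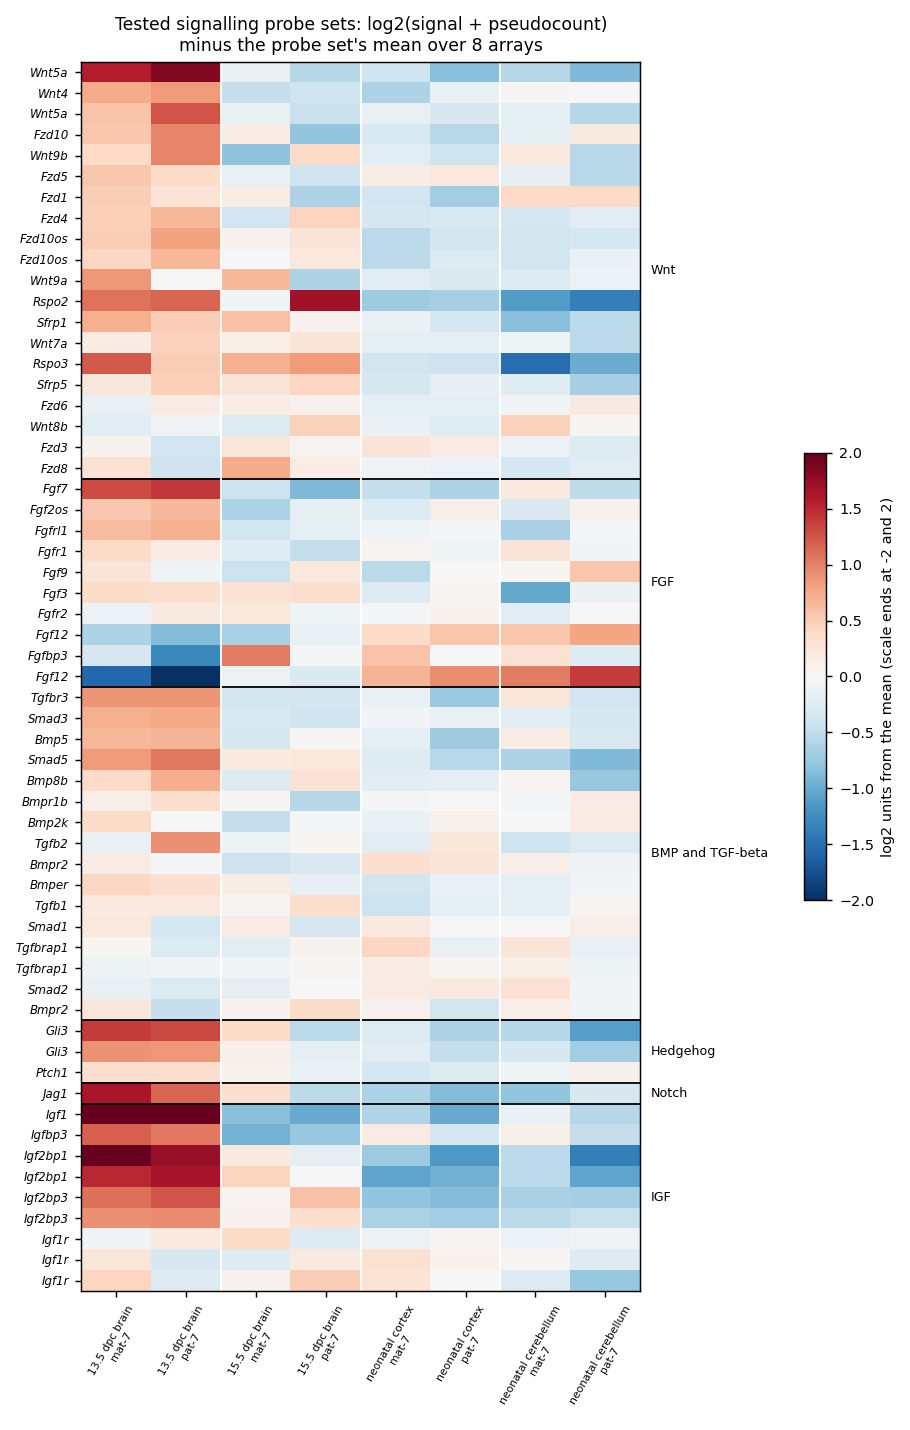
Each row is 1 of the 59 tested probe sets, grouped by pathway, and each column 1 of the 8 arrays; colour gives log2(signal + pseudocount) minus the probe set's mean over the arrays, in log2 units, with the scale ending at -2 and 2. The 2 columns of 13.5 dpc brain at the left are red for most rows, and 41 of the 59 probe sets had their highest context mean there; the 2 Fgf12 rows and Fgfbp3 are blue there.

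Between 13.5 and 15.5 dpc, 16 of the 59 probe sets (14 genes) changed, 14 lower and 2 higher at 15.5 dpc. Of all tested probe sets, 6.59% were called, 3.07% lower and 3.52% higher. The median difference was -0.43 log2 units for the 59 probe sets and -0.02 for all tested probe sets. The genes that fell were Igf1, Igfbp3, Igf2bp1, Wnt5a, Wnt4, Fgf7, Fgfrl1, Fgf2os, Jag1, Gli3, Tgfbr3 and Smad3, and the genes that rose were Fgf12 and Fgfbp3. With 2 arrays a side, the number of calls fell whenever 1 array was left out. Each such fit also had 2 residual degrees of freedom instead of 3, even where the array left out was neonatal and on neither side. The loss of an array and the loss of a degree of freedom were not told apart. There were 0 members called, and 0 of all probe sets, without the paternal-7 array of 13.5 dpc. In that fit 23 members still had an unadjusted p below 0.05 by limma. The count was 2 without either array of 15.5 dpc, 5 without any 1 of the 4 neonatal arrays, and 8 without the maternal-7 array of 13.5 dpc. All 16 probe sets kept their sign in each of these fits.

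Between the embryonic and the neonatal arrays, 21 of the 59 probe sets (16 genes) changed, 19 lower and 2 higher in the neonatal tissues. Of all tested probe sets, 30.7% were called, 16.4% lower and 14.3% higher. The median difference was -0.38 log2 units for the members and -0.16 for all tested probe sets. Centring each array on its median moved the latter to 0.02 and the members' split to 16 lower and 4 higher. Lower in the neonatal tissues than in the mean of the embryonic ages were Wnt5a, Rspo2, Rspo3, Sfrp1, Sfrp5, Fzd4, Fzd10os, Fgf3 and Fgf7. Smad5, Gli3, Jag1, Igf1, Igf2bp1 and Igf2bp3 were lower too, and Fgf12 was higher. Of the 19 lower probe sets, 7 were also called lower against 15.5 dpc alone, a comparison added after the data were seen. Fgf7 and Igf1 did not lie below 15.5 dpc (0.31 ± 0.21 and 0.35 ± 0.17 log2 units). The calls of Sfrp5, Fgf3, Fgf7, Fzd4 and 1 probe set of Fzd10os (the one with the smaller difference) were lost under at least 1 other setting. Age and dissected region cannot be told apart in this comparison, since the embryonic RNA came from whole brain. In RNA of a whole tissue, fewer cells of a type and less RNA per cell cannot be told apart either.

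The neonatal tissues were also set against each embryonic age. Against 15.5 dpc alone, a comparison added after the data were seen, 9 probe sets were called, where 9.32% of all tested probe sets were called, 3.61% lower and 5.71% higher. Of the 9, 7 were lower (Rspo2, Rspo3, Smad5 and both probe sets of Igf2bp1 and of Igf2bp3) and 2 were higher (both of Fgf12). Against 13.5 dpc alone, also added afterwards, 31 were called, 28 lower and 3 higher, where 31.8% of all were called, 16.4% lower and 15.4% higher. These comparisons share the neonatal arrays.

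**Figure D2:**
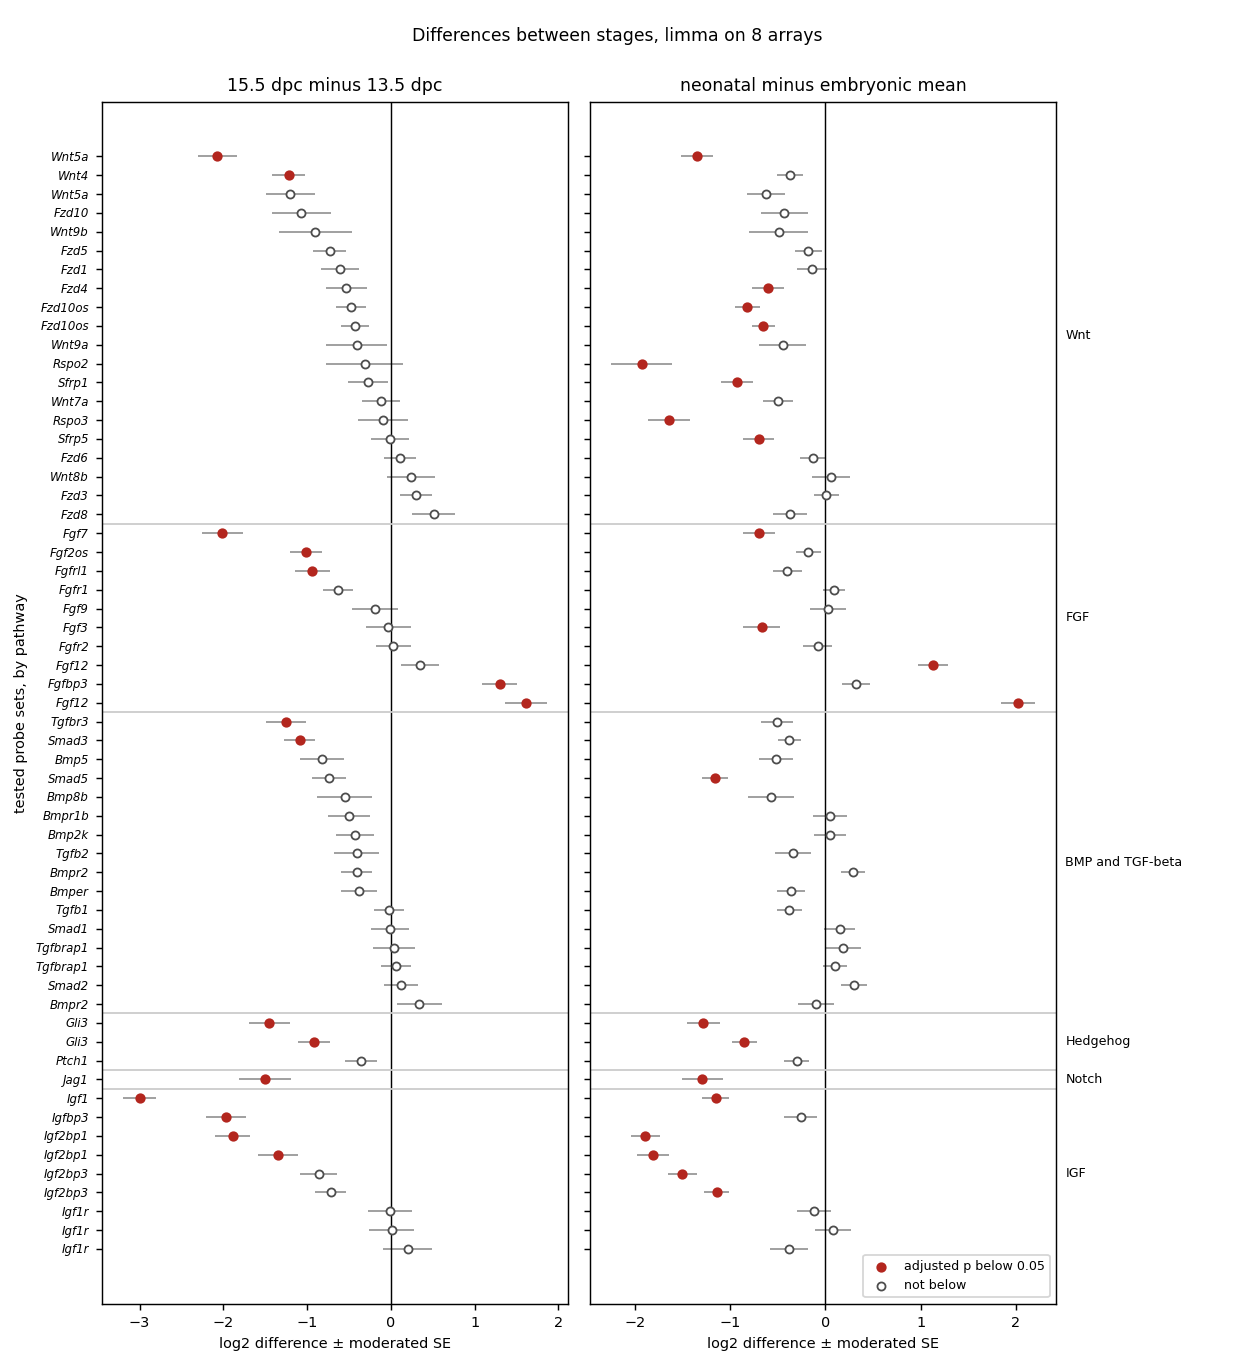
Points give the log2 difference of each tested probe set, with bars of 1 moderated standard error from limma, for 15.5 minus 13.5 dpc at the left and neonatal minus embryonic at the right; filled points had an adjusted p below 0.05. At the left 14 filled points lie below 0 and 2 above, and at the right 19 lie below and 2 above; Igf1 lies farthest left at -3.0 between the embryonic ages and at -1.15 between the stages.

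Among the Wnt ligands, Wnt5a, which signals mostly without beta-catenin, had the widest range. Its more variable probe set read 949 and 1163 at 13.5 dpc (maternal-7 and paternal-7 in that order, as in all values below), 247 and 169 at 15.5 dpc, 198 and 132 in cortex, and 169 and 126 in cerebellum. Only the 13.5 dpc arrays lay above the array median, so the probe set entered the test through the group where it was high. Its difference of -2.07 ± 0.23 log2 units (15.5 minus 13.5 dpc, moderated SE, limma adjusted p = 0.0113) corresponds to at least 3.93-fold lower signal when the dim side is set at the array medians. The other Wnt5a probe set read 605 and 1006 at 13.5 dpc against 243 to 346 on the other 6 arrays, without overlap, and its difference of -1.20 ± 0.29 just missed the threshold (limma adjusted p = 0.0586).

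Wnt4, a ligand with roles in cell polarity and in beta-catenin signalling, read 1374 and 1490 at 13.5 dpc, 565 and 595 at 15.5 dpc, 500 and 720 in cortex, and 816 and 794 in cerebellum. Both 13.5 dpc arrays stood above all others, and Wnt4 fell by 1.22 ± 0.20 log2 units to 15.5 dpc (limma adjusted p = 0.0264). The neonatal tissues did not differ from the embryonic mean past the threshold (-0.37 ± 0.14, limma adjusted p = 0.0899). The other tested ligands, Wnt7a, Wnt8b, Wnt9a and Wnt9b, passed neither comparison, and Wnt7a came closest, with 742 to 1026 on the neonatal and 1199 to 1531 on the embryonic arrays (-0.50 ± 0.16, limma adjusted p = 0.0539).

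The R-spondins, secreted proteins that keep Wnt receptors at the cell surface, were lower in the neonatal tissues, and neither passed the test between the embryonic ages. Rspo3 read 1218 and 710 at 13.5 dpc, 828 and 921 at 15.5 dpc, 365 and 350 in cortex, and 130 and 216 in cerebellum. Every neonatal array was below every embryonic one, the neonatal mean lay 1.64 ± 0.22 log2 units lower (limma adjusted p = 0.00293), and the embryonic ages overlapped (-0.09 ± 0.30, adjusted p = 0.902). Cortex exceeded cerebellum on both arrays, by 0.87 ± 0.30, which did not pass the threshold (limma adjusted p = 0.538).

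Rspo2, which lies on chromosome 15, read 430 and 459 at 13.5 dpc, 164 and 681 at 15.5 dpc, and 30.9 to 87.4 on the 4 neonatal arrays. The neonatal arrays were all below their array medians and below every embryonic array, a difference of -1.93 ± 0.32 (limma adjusted p = 0.00654), or at least 1.66-fold. The probe set was above the median on 3 arrays, all embryonic, so it entered the test through the group where it was high. The 2 arrays of 15.5 dpc lay further apart from each other (1.73 log2 units, paternal-7 higher) than those of any other context did (at most 0.26 in either direction).

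Of the secreted antagonists that bind Wnt ligands, Sfrp1 read 5087 and 4368 at 13.5 dpc, 4650 and 3264 at 15.5 dpc, 2810 and 2397 in cortex, and 1699 and 2137 in cerebellum, again without overlap between stages. It was 0.93 ± 0.17 log2 units lower in the neonatal tissues (limma adjusted p = 0.00841). Sfrp5 read 675 to 823 on the embryonic and 338 to 504 on the neonatal arrays and was lower by the same test (-0.70 ± 0.16, limma adjusted p = 0.0198).

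Of the 7 tested Frizzled receptors, Fzd4 alone passed the test between stages and 0 passed between the embryonic ages. Fzd4 read 1534 and 1751 at 13.5 dpc, 824 and 1507 at 15.5 dpc and 845 to 928 on the neonatal arrays, so the stages overlapped at 1 embryonic array. Its difference was -0.60 ± 0.17 (limma adjusted p = 0.0394). Fzd3, a receptor used in axon guidance, stayed within 3682 to 5791 on all arrays (neonatal minus embryonic 0.01 ± 0.13, limma adjusted p = 0.944). Fzd1 had the lowest adjusted p of any member between cortex and cerebellum, with 2320 and 1884 in cortex and 4028 and 4038 in cerebellum, but the difference of -0.93 ± 0.23 did not pass (limma adjusted p = 0.306). Fzd5, Fzd6, Fzd8 and Fzd10 passed neither stage comparison.

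Both probe sets of Fzd10os, a transcript annotated opposite Fzd10, were lower in the neonatal tissues. The first read 1139 and 1414 at 13.5 dpc, 836 and 954 at 15.5 dpc and 522 to 603 on the neonatal arrays (-0.82 ± 0.13, limma adjusted p = 0.00534). The second ran from 469 to 771 on the embryonic and from 307 to 421 on the neonatal arrays (-0.65 ± 0.12, limma adjusted p = 0.00987). Fzd10 itself read 1618 and 2221 at 13.5 dpc, 1229 and 612 at 15.5 dpc and 727 to 1260 in the neonatal tissues, a difference that did not pass (-0.43 ± 0.25, limma adjusted p = 0.213).

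Among 21 tested genes from a list of other Wnt components, 8 changed between stages, 2 higher and 6 lower in the neonatal tissues, and 4 between 15.5 and 13.5 dpc, 1 higher and 3 lower. Of all tested probe sets, 30.7% changed between stages and 6.59% between the embryonic ages. Ror1, a receptor of Wnt5a, was also highest at 13.5 dpc, with 897 and 1135 at 13.5 dpc against 221 to 381 on the other 6 arrays (15.5 minus 13.5 dpc -1.47 ± 0.25, limma adjusted p = 0.0266). Lef1, a nuclear partner of beta-catenin that is itself a common target of the pathway, read 1559 and 1462 at 13.5 dpc and 864 and 712 at 15.5 dpc (-0.90 ± 0.20, limma adjusted p = 0.047). Apc, a part of the complex that degrades beta-catenin, went the other way. It read 5014 and 3183 at 13.5 dpc, 8326 and 10380 at 15.5 dpc and 11728 to 18748 in the neonatal tissues (neonatal minus embryonic 1.21 ± 0.20, limma adjusted p = 0.00609). Lgr5, an R-spondin receptor, was lower in the neonatal tissues, at 209 to 247 against 346 to 506 (-0.77 ± 0.14, limma adjusted p = 0.0089).

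**Figure D3:**
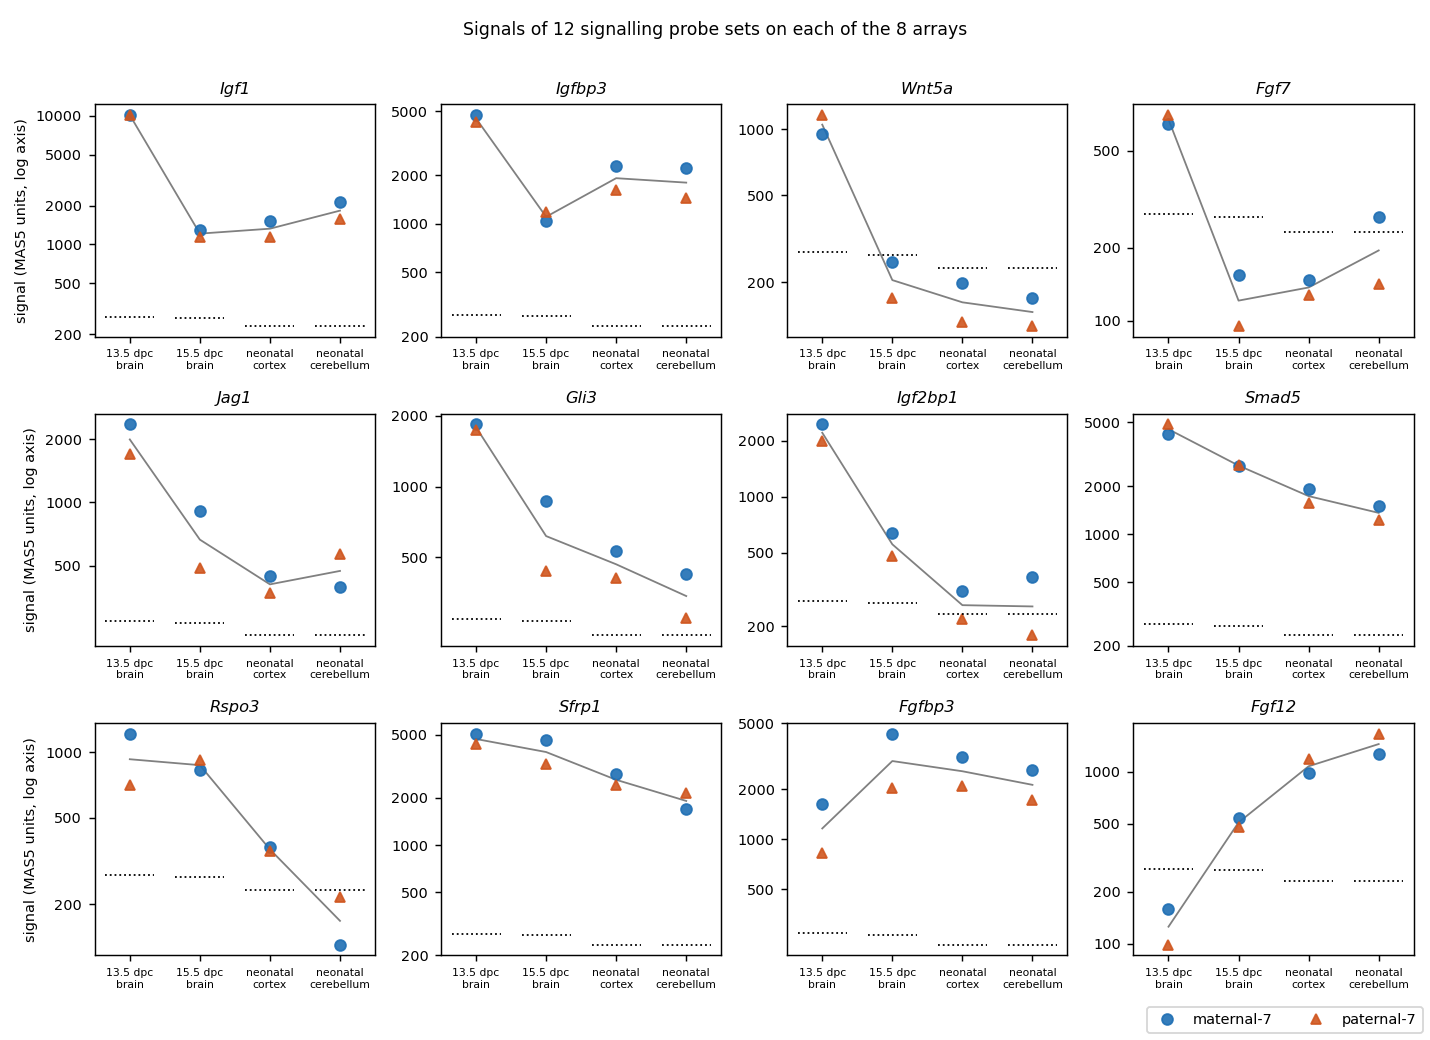
Each panel plots the MAS5 signal of 1 probe set on a log axis for the 4 contexts, with circles for maternal-7 and triangles for paternal-7 arrays; grey lines join the geometric means of each pair and dotted lines mark the mean array median of a context. Igf1, Igfbp3, Wnt5a, Fgf7, Jag1, Gli3 and Igf2bp1 stand highest at 13.5 dpc, Smad5, Sfrp1 and Rspo3 are low on all neonatal arrays, and Fgfbp3 and Fgf12 are lowest at 13.5 dpc.

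In the FGF family the secreted ligand Fgf7, made mainly by mesenchyme in other tissues, read 645 and 701 at 13.5 dpc, 154 and 95.3 at 15.5 dpc, 147 and 128 in cortex, and 267 and 142 in cerebellum. Both 13.5 dpc arrays exceeded all others, 1 further array was above its median, and the fall to 15.5 dpc was -2.01 ± 0.24 log2 units (limma adjusted p = 0.0124), or at least 2.51-fold. Fgf3, from a probe set of a type that can also match related transcripts, read 571 to 599 on the embryonic arrays and 191 to 471 on the neonatal ones (-0.67 ± 0.19, limma adjusted p = 0.0362). Fgf9, a ligand of neurons and glia, ranged from 278 to 653 with the stages overlapping (0.03 ± 0.19, limma adjusted p = 0.916).

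Of the receptors, Fgfrl1, which lacks a kinase domain, read 3703 and 3932 at 13.5 dpc, 1841 and 2102 at 15.5 dpc, 2231 and 2335 in cortex, and 1504 and 2318 in cerebellum. It fell between the embryonic ages by 0.94 ± 0.21 (limma adjusted p = 0.0489). Fgfr1 read 764 and 645 at 13.5 and 476 and 393 at 15.5 dpc, a difference that did not pass (-0.63 ± 0.18, limma adjusted p = 0.0874), and Fgfr2 stayed between 343 and 480 throughout. Fgf2os, a transcript named for its position opposite Fgf2, read 324 and 354 at 13.5 dpc and 111 to 227 elsewhere. It lay above the array median only at 13.5 dpc and was lower at 15.5 dpc (-1.01 ± 0.19, limma adjusted p = 0.0318), at least 1.27-fold.

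The 2 FGF-named genes that rose were not ligands. Fgf12, which encodes an intracellular protein that binds voltage-gated sodium channels in neurons, read 160 and 98.5 at 13.5 dpc, 542 and 476 at 15.5 dpc, 981 and 1187 in cortex, and 1266 and 1668 in cerebellum. The order of the contexts had no overlap between ages. The differences were 1.61 ± 0.25 from 13.5 to 15.5 dpc (limma adjusted p = 0.0245, at least 1.86-fold) and 2.02 ± 0.18 for neonatal minus embryonic (limma adjusted p = 0.00103). Its other probe set read 246 to 446 on the embryonic and 655 to 899 on the neonatal arrays (1.13 ± 0.16, limma adjusted p = 0.00381). The embryonic ages overlapped on that probe set (0.35 ± 0.23, limma adjusted p = 0.416).

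Fgfbp3, a secreted protein that binds FGFs and frees them from the matrix, read 1644 and 825 at 13.5 dpc, 4322 and 2031 at 15.5 dpc, 3146 and 2103 in cortex, and 2611 and 1739 in cerebellum. It was higher at 15.5 than at 13.5 dpc by 1.30 ± 0.21 (limma adjusted p = 0.0257) and did not differ past the threshold between stages (0.32 ± 0.15, limma adjusted p = 0.144). Among 11 tested genes from a list of other FGF components, 5 changed between stages and 0 between the embryonic ages (30.7% and 6.59% of all tested probe sets did). Spred3, Etv5 and Sos1 were higher in the neonatal tissues, and Flrt2 and Flrt3, membrane proteins that bind FGF receptors, were lower. Etv5, a transcription factor induced by FGF signalling, read 1530 to 1854 on the neonatal and 1026 to 1487 on the embryonic arrays (0.53 ± 0.14, limma adjusted p = 0.0272).

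Among the BMP and TGF-beta members, 1 of 16 tested probe sets changed between stages, where 30.7% of all tested probe sets did, and 2 of 16 between 15.5 and 13.5 dpc, where 6.59% did. Smad5, a transducer of BMP signals, read 4228 and 4862 at 13.5 dpc, 2678 and 2695 at 15.5 dpc, 1920 and 1558 in cortex, and 1495 and 1234 in cerebellum. No context overlapped its neighbour in that order, and the neonatal tissues were lower by 1.16 ± 0.14 (limma adjusted p = 0.00257). The step between embryonic ages did not pass (-0.74 ± 0.20, limma adjusted p = 0.0848). Smad3, a transducer of TGF-beta signals, had a single step instead. It read 3688 and 3839 at 13.5 dpc against 1676 to 2163 on the other 6 arrays (15.5 minus 13.5 dpc -1.09 ± 0.18, limma adjusted p = 0.0257). Smad1 (2016 to 3005) overlapped between all contexts.

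Tgfbr3, a co-receptor that presents TGF-beta ligands, read 3994 and 4021 at 13.5 dpc, 1648 and 1650 at 15.5 dpc, 1934 and 1261 in cortex, and 2565 and 1635 in cerebellum. It fell between the embryonic ages by 1.25 ± 0.24 (limma adjusted p = 0.0344), and the neonatal values spread around those of 15.5 dpc. The ligand Bmp5 was also highest at 13.5 dpc (1172 and 1180, against 418 to 798 elsewhere), but its step of -0.82 ± 0.26 did not pass (limma adjusted p = 0.116). The ligands Tgfb1, Tgfb2 and Bmp8b, the receptors Bmpr1b and Bmpr2, and the BMP-binding protein Bmper passed neither comparison. The brighter Bmpr2 probe set ranged from 3983 to 6684, with its lowest values at 15.5 dpc. Of 9 tested genes on a list of other components, 4 were lower in the neonatal tissues (Acvrl1, Fst, Smurf2 and Tgif2), as were 16.4% of all tested probe sets. Tgif2, a repressor of TGF-beta target genes, read 730 and 585 at 13.5 dpc, 257 and 91.2 at 15.5 dpc and 41 to 62.7 in the neonatal tissues (neonatal minus embryonic -1.82 ± 0.21, limma adjusted p = 0.00196, at least 1.36-fold). It was the 1 gene of this list called between the embryonic ages (-1.71, limma adjusted p = 0.0284, at least 2.44-fold), and it too entered the test through 13.5 dpc, the only arrays where it was above the median.

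In the Hedgehog pathway, both probe sets of Gli3, the factor whose processed form represses Hedgehog targets, changed in both stage comparisons. The first read 1840 and 1740 at 13.5 dpc, 867 and 437 at 15.5 dpc, 534 and 408 in cortex, and 425 and 275 in cerebellum. The second read 3619 and 3556, 2067 and 1690, 1646 and 1356, and 1521 and 1161 in that order. On both probe sets the 13.5 dpc arrays stood apart from all others. From 13.5 to 15.5 dpc the differences were -1.45 ± 0.24 and -0.92 ± 0.19 (limma adjusted p = 0.0261 and 0.0394), and for neonatal minus embryonic -1.28 ± 0.17 and -0.85 ± 0.13 (adjusted p = 0.00291 and 0.00499).

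Ptch1, the receptor of Hedgehog ligands and a target of the pathway, ranged from 272 to 475 with its highest values at 13.5 dpc (469 and 475) and passed neither comparison (15.5 minus 13.5 dpc -0.36 ± 0.19, limma adjusted p = 0.315). Of 9 tested genes on a list of other Hedgehog components, 5 changed between stages (30.7% of all tested probe sets did) and 3 between embryonic ages (6.59% did). Cdon, a co-receptor for Hedgehog ligands, read 3983 and 3081 at 13.5 dpc, 1644 and 1487 at 15.5 dpc and 632 to 1259 in the neonatal tissues (neonatal minus embryonic -1.29 ± 0.13, limma adjusted p = 0.00142). Kif7, a kinesin that controls Gli processing in the cilium, read 701 and 842 at 13.5 dpc and 46.5 to 220 on the other 6 arrays (15.5 minus 13.5 dpc -1.69 ± 0.33, limma adjusted p = 0.0343, at least 2.87-fold). It was above the array median at 13.5 dpc only and so entered the test through that group. Disp1, which releases the lipid-bound ligand, fell between the embryonic ages (-1.11 ± 0.23, limma adjusted p = 0.0401). Its relative Disp2 was higher in the neonatal tissues (3892 to 6443, against 1037 to 1999 in the embryonic brains, 1.74 ± 0.15, limma adjusted p = 0.000933).

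The Notch pathway was represented by 1 tested probe set, that of the ligand Jag1, since the Notch4 probe set lay below the array median on every array. Jag1 read 2348 and 1688 at 13.5 dpc, 909 and 485 at 15.5 dpc, 447 and 370 in cortex, and 393 and 565 in cerebellum. The 13.5 dpc arrays exceeded all others, whereas 15.5 dpc and cerebellum overlapped. The differences were -1.50 ± 0.31 between the embryonic ages (limma adjusted p = 0.0411) and -1.29 ± 0.22 for neonatal minus embryonic (limma adjusted p = 0.00673). Of 6 tested genes on a list of other Notch components, 4 were lower in the neonatal tissues, as were 16.4% of all tested probe sets, and 0 changed between the embryonic ages. The 4 were Pofut1, which puts fucose on the receptors, Psenen, a subunit of the gamma-secretase that cleaves them, Neurl1a, a ubiquitin ligase for ligands, and Rbpj, the DNA-binding partner of the cleaved receptor. Rbpj read 2069 to 3256 on the embryonic and 1477 to 1870 on the neonatal arrays (-0.66 ± 0.16, limma adjusted p = 0.0214).

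The IGF family held the largest difference between the embryonic ages among the 59 probe sets. Igf1, a secreted growth factor, read 10119 and 10159 at 13.5 dpc, 1291 and 1143 at 15.5 dpc, 1535 and 1147 in cortex, and 2137 and 1573 in cerebellum. The 13.5 dpc arrays lay far above a narrow band of the other 6. The difference between the embryonic ages was -3.0 ± 0.20 log2 units (limma adjusted p = 0.00438, the lowest value reached by any tested probe set in that comparison). Without 1 array at a time, that difference ranged from -3.17 to -2.83. The neonatal tissues did not lie below 15.5 dpc, so the neonatal minus embryonic difference of -1.15 ± 0.14 (limma adjusted p = 0.00229) was carried by the 13.5 dpc arrays.

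Igfbp3, a binding protein that carries IGFs outside the cell, read 4734 and 4289 at 13.5 dpc, 1036 and 1180 at 15.5 dpc, 2287 and 1611 in cortex, and 2234 and 1453 in cerebellum. It fell by 1.97 ± 0.24 between the embryonic ages (limma adjusted p = 0.0132). Its neonatal arrays all stood between those of the embryonic ages, and the neonatal minus embryonic difference did not pass (-0.26 ± 0.17, limma adjusted p = 0.262). The receptor Igf1r, on chromosome 7, had 3 tested probe sets with ranges of 488 to 793, 388 to 635 and 1376 to 3371. On the first and the last, both cortex arrays read higher than both cerebellum arrays, while the stages and the embryonic ages overlapped on each of the 3, and none passed a comparison. The difference of the last, cortex minus cerebellum, was 0.64 ± 0.29 (limma adjusted p = 0.673).

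Igf2bp1 and Igf2bp3 encode RNA-binding proteins of embryonic tissues that were named for binding Igf2 mRNA. Igf2bp1 read 2449 and 1991 at 13.5 dpc, 640 and 479 at 15.5 dpc, 311 and 218 in cortex, and 367 and 179 in cerebellum on 1 probe set. Its differences were -1.89 ± 0.21 between embryonic ages and -1.89 ± 0.15 between stages (limma adjusted p = 0.0111 and 0.000766). Its other probe set, of a type that can match related transcripts, read 1872 and 2082, 871 and 630, 268 and 291, and 415 and 268 in the same order (-1.35 ± 0.24 and -1.81 ± 0.17, limma adjusted p = 0.0301 and 0.00117). Both probe sets stepped down at each age without overlap. Igf2bp3 read 5962 and 6129 at 13.5 dpc, 3338 and 3987 at 15.5 dpc and 1947 to 2293 on the neonatal arrays. It was lower in the neonatal tissues (-1.14 ± 0.13, limma adjusted p = 0.00186), and the embryonic step did not pass (-0.72 ± 0.18, adjusted p = 0.0679). Its second probe set gave -1.50 ± 0.15 between stages (limma adjusted p = 0.00148).

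Of 11 tested genes on a list of other IGF components, 3 were higher in the neonatal tissues (Irs4, Pik3r1 and Pik3ca, which act inside the cell below the receptor), and 1 was lower at 15.5 than at 13.5 dpc. Of all tested probe sets, 30.7% were called between stages and 6.59% between the embryonic ages. The gene lower at 15.5 dpc was Pappa, a protease that cuts IGF-binding proteins, which read 485 and 353 at 13.5 dpc and 87.9 to 256 on the other arrays (-1.33 ± 0.23, limma adjusted p = 0.029, at least 1.55-fold). Over all 6 lists of other pathway genes, 0 genes passed in cortex against cerebellum and 0 between the duplications.

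Markers of non-neural tissue did not all move together at 13.5 dpc. Of 12 listed markers of head mesenchyme and neural crest, 3 were on the array. Prrx1 read 2646 and 2759 at 13.5 dpc against 172 to 325 on the other 6 arrays. Alx1 read 1031 and 1142 against 9.1 to 82.5, and Osr2 lay below the array median on all arrays. Their summed signal was 3701 and 4052 at 13.5 dpc and 194 to 435 elsewhere. Prrx1 and Alx1 were called lower at 15.5 than at 13.5 dpc and lower in the neonatal than in the embryonic samples. Alx1 was above the array median at 13.5 dpc only and so entered the test through that group. The 4 markers of meninges and fibroblasts (Col1a2, Dcn, Pdgfra and Fbln1) summed to 1292 and 1618 at 13.5 dpc and to 1098 to 1595 elsewhere. Fbln1 was the largest part of the sum on every array (534 to 1113), and 0 of the 3 tested markers were called. Col1a2, below the median on all arrays and so not tested, read 111 and 159 at 13.5 dpc and 3.39 to 53.8 elsewhere. Dcn read 268 and 371 at 13.5 dpc, 199 and 227 at 15.5 dpc, and 178 to 349 on the neonatal arrays. The 2 markers of vessels (Flt1 and Abcc9) summed to 1634 and 1612 at 13.5 dpc and to 1010 to 1243 elsewhere, and Abcc9 was called lower at 15.5 dpc. The 3 markers of choroid plexus (Ttr, Kcnj13 and Clic6) summed to 37443 and 24815 at 13.5 dpc and to 36139 to 58548 elsewhere, nearly all of it Ttr. Kcnj13, a potassium channel, was called higher at 15.5 than at 13.5 dpc (1.03 ± 0.19, limma adjusted p = 0.0314). The 5 markers of cortical neurons summed to 7900 and 6468 at 13.5 and 13764 and 15253 at 15.5 dpc, and 1 of them, Neurod2, was called higher at 15.5 dpc. Markers of glia and progenitors differed between stages in both directions. Of the progenitor markers Rfx4, Slc1a3, Sox9 and Top2a, the first pair were called higher in the neonatal tissues. Sox9 was below the array median on all arrays. Top2a, a gene of dividing cells, was called lower in the neonatal tissues (-0.71 ± 0.21, limma adjusted p = 0.0409, at least 1.36-fold). It was above the array median on embryonic arrays only and so entered the test through the group where it was high. The progenitor markers summed to 6565 to 8782 on the neonatal arrays against 2707 to 5510 on the embryonic ones. That sum was mostly the signal of Slc1a3, a transporter also found in astrocytes. Gfap, Aqp4 and Slc1a2 summed to 4820 to 6229 against 2283 to 3257, with Aqp4 and Slc1a2 called higher in the neonatal tissues and Gfap too dim to test. The part of these tissues and cells in the values of Igf1, Igfbp3, Fgf7, Wnt5a and the other genes high at 13.5 dpc was not tested. Of the 9 listed markers of microglia and the 8 of red blood cells, 0 were among the probe sets with 1 gene symbol. These cells could not be looked at.

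**Figure D4:**
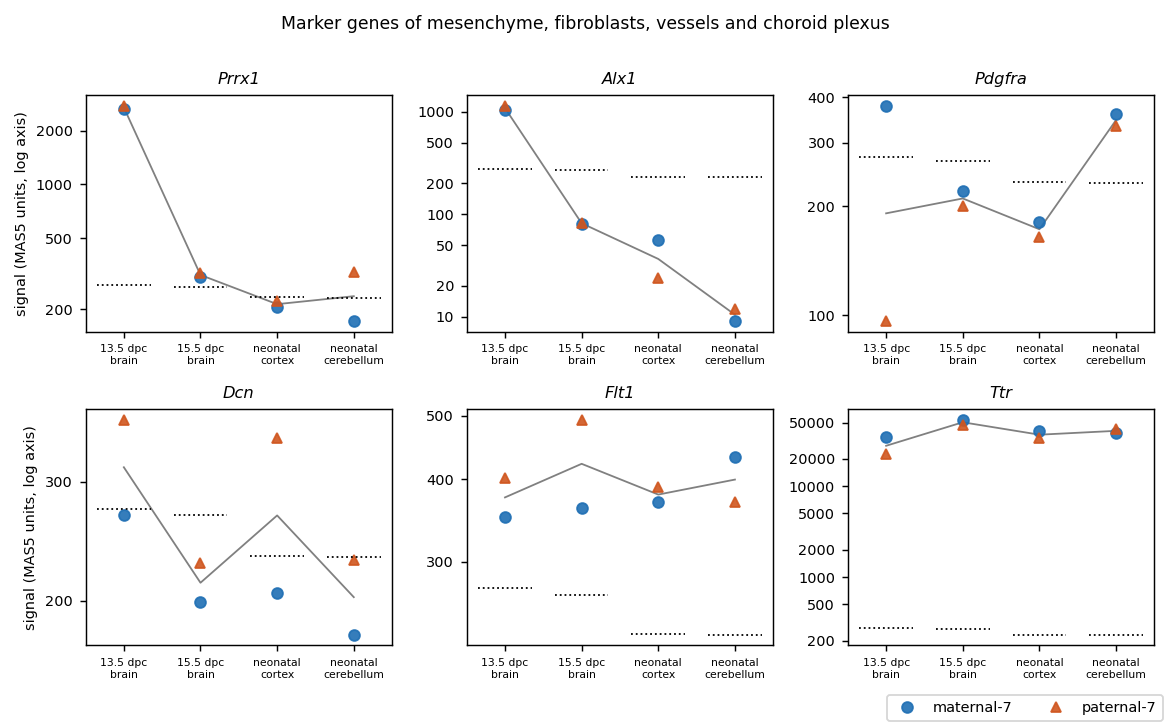
Panels plot the MAS5 signals of 6 marker genes on log axes for the 4 contexts, with circles for maternal-7 and triangles for paternal-7 arrays, grey lines through the geometric means of each pair and dotted lines at the mean array medians. Prrx1 and Alx1, markers of head mesenchyme, stand at 2646 and 2759 and at 1031 and 1142 at 13.5 dpc and at or below 325 elsewhere, while Pdgfra, Dcn, Flt1 and Ttr show no such step.

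Between neonatal cortex and cerebellum, 0 of the 59 probe sets passed limma's test at an adjusted p of 0.05, where 0.325% of all tested probe sets did; 3 had an unadjusted p below 0.05, all of the Wnt pathway. They include Fzd1, with higher signal in cerebellum, and Rspo3, with higher signal in cortex, whose values are given above. The third, Fzd5, read 230 and 245 in cortex and 175 and 120 in cerebellum (0.54 ± 0.20, limma adjusted p = 0.564). The median difference of the members was 0.03 log2 units. In simulated data with 200 changed probe sets, 0% of differences of 1 log2 unit passed in this comparison, and 99% of differences of 2. The lack of calls therefore does not show that the 2 regions were alike.

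The origin of the duplicated chromosome segments made no difference that passed the threshold for any member. Between paternal-7 and maternal-7 arrays, 0 of the 59 probe sets had a limma adjusted p below 0.05 (0.00756% of all tested probe sets did, 1 probe set), 4 had an unadjusted p below 0.05, and the lowest adjusted p was 0.532. The moderated standard errors ran from 0.12 to 0.32 log2 units, with a median of 0.17, and 1 pair per context supports each value. Large differences could miss the threshold. A Snhg14 probe set passed this test (3.41 ± 0.22 log2 units, limma adjusted p = 0.0194). The brightest Snhg14 probe set did not (4.42 ± 0.37, limma adjusted p = 0.0595), nor did another (2.17 ± 0.23, adjusted p = 0.162). Counting any difference, however small, paternal-7 was higher in all 4 contexts for 7 probe sets (11.9%, against 9.67% of all tested) and lower in all 4 for 6 (10.2%, against 9.08%). The 2 arrays of a pair were closest in cortex, where the SD of the pair differences over the 59 probe sets was 0.273, against 0.393 in cerebellum, 0.542 at 15.5 and 0.387 at 13.5 dpc. Over all tested probe sets it was 0.399, 0.416, 0.576 and 0.531 in the same order.

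The member that differed most was Fgfbp3, on chromosome 19, which was lower on the paternal-7 array of every context: in cortex 2103 against 3146, in cerebellum 1739 against 2611, and in embryos 2031 against 4322 (15.5 dpc) and 825 against 1644 (13.5 dpc). Its mean difference was -0.79 ± 0.15 log2 units (limma adjusted p = 0.532). Wnt9a followed (-0.52 ± 0.25, limma adjusted p = 0.589), without 1 sign in all contexts. Among the members with 1 sign, 1 probe set of Igf2bp1 came next (-0.48 ± 0.15, limma adjusted p = 0.535), and its partner probe set did not have 1 sign in all contexts. Both of Gli3 had 1 sign too (-0.46 ± 0.17 and -0.24 ± 0.13, limma adjusted p = 0.562 and 0.615). Fgfr1 was lower in all 4 contexts by a small amount (-0.23 ± 0.12). In the other direction, Tgfb2 had the largest mean difference with 1 sign in all contexts (0.44 ± 0.19, limma adjusted p = 0.577). The pair of 13.5 dpc made most of it, with 728 against 321, while the other 3 pairs differed by 0.11 to 0.45 log2 units. Fgf2os (0.33 ± 0.13), Fzd4 (0.29 ± 0.17), Fgfrl1 (0.24 ± 0.15) and 1 probe set of Fzd10os (0.23 ± 0.12) followed, none past the threshold.

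In all, 7 tested probe sets of 5 member genes lie on chromosome 7 and 2 genes on chromosome 15. The labels do not place them inside or outside the duplicated segments. Tgfb1 was higher on the paternal-7 array in cortex, cerebellum and at 15.5 dpc (0.23 to 0.31 log2 units) and nearly level at 13.5 dpc (616 against 615), a mean of 0.20 ± 0.13 (limma adjusted p = 0.652). Fzd4, also on chromosome 7, was higher on the paternal-7 array in all 4 contexts (0.29 ± 0.17, limma adjusted p = 0.63). Fgf3 differed by 0.30 ± 0.19, Fgfr2 by 0.08 ± 0.15 and the 3 Igf1r probe sets by -0.16 ± 0.19, -0.04 ± 0.18 and -0.26 ± 0.20. On chromosome 15, Fzd6 differed by 0.12 ± 0.14 and Rspo2 by 0.40 ± 0.32, the latter through the 15.5 dpc pair alone. Whether the duplication effect itself differed between neonatal and embryonic arrays was also tested, and 0 of the 59 probe sets (0.0% of all) passed in limma, with 6 at an unadjusted p below 0.05 and a lowest adjusted p of 0.473.

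**Figure D5:**
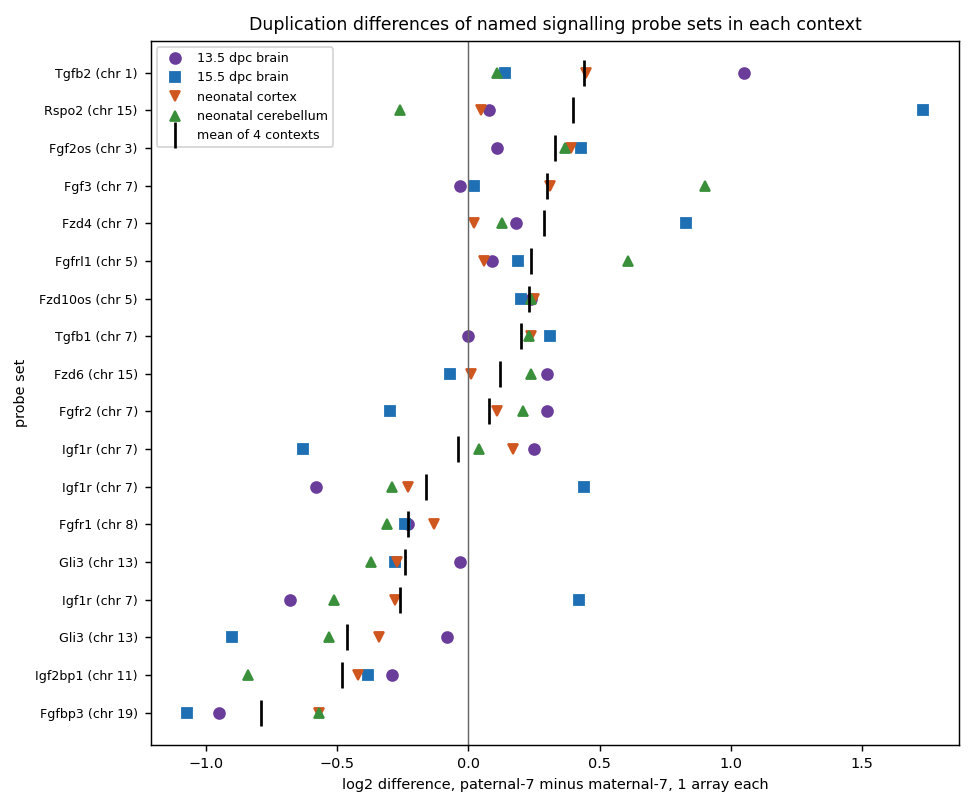
Each symbol is the log2 difference between the paternal-7 and the maternal-7 array of 1 context, and black bars are means of the 4 contexts, for the members with the largest differences of 1 sign and for those on chromosomes 7 and 15. Fgfbp3 lies below 0 in all 4 contexts with a mean of -0.79, and Rspo2 lies at 1.73 at 15.5 dpc but within 0.26 of 0 in the other 3 contexts.

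The remaining 19 probe sets were too dim to test: 16 lay above the array median on no array and 3 on 1 array, with no signal over 374. In all, 11 genes had no tested probe set, among them the Wnt inhibitor Dkk1, the ligands Wnt6, Fgf1, Fgf5 and Bmp15, the R-spondin Rspo4, the receptors Notch4 and Bmpr1a, the Hedgehog transducer Smo, the inhibitor Smad7 and the sodium-channel partner Fgf14. For Smo the 8 signals ran from 7.57 to 43.2 and for Bmpr1a from 20 to 84. A probe set can be dim for reasons of its own design, so these values give no level of the genes.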

How the data were processed

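RNA of 8 brain samples was measured on 1 Affymetrix 430B array each. The deposited values are linear signal intensities made with MAS5 per the submitters' processing notes, with a version not given in the sources used here, and hold no detection calls. Control probe sets (64) were left out. Precision is limited by there being 8 arrays. Of 22511 probe sets, 14661 had 1 symbol, 245 several and 7605 none.

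The fits used log2(signal + 58.5), 58.5 being the median of the arrays' 20th percentiles, so a log2 difference understates the change of dim probe sets. The 13221 probe sets above the array median on at least 2 arrays entered 1 limma fit (version 3.58.1, R 4.3.3) of all 8 arrays, whose terms were the 4 contexts and the duplication (3 residual degrees of freedom, or 2 with the interaction). Benjamini-Hochberg adjustment ran over all of them with a threshold of 0.05, errors are moderated standard errors, and the script was tested on simulated data. Where every array of a side lay below its median, the fold is a bound against the array medians. Each listed gene outside the family names is represented by its brightest probe set.

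The labels do not say whether animals were pooled. Members and lists were chosen with earlier results of these data known. Named are at most 12 called members each way per stage comparison whose sides do not overlap, the 4 lowest context F tests and 2 brightest genes of each pathway, the 5 largest duplication differences of 1 sign each way, members on chromosomes 7 and 15, and up to 4 called genes per list with Lef1 and Etv5. Others were named after their values were seen. Alternatives were other normalizations, pseudocounts and filters, an intensity trend, no duplication term and leaving out arrays.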

Additional observations from a re-analysis of the deposited data

How the results depend on the processing

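Leaving out 1 array at a time gave 12 to 26 members called for any difference among contexts, 16 to 21 for neonatal minus embryonic and 0 to 8 for 15.5 minus 13.5 dpc. Without a filter on dim probe sets, 5 members were called for 15.5 minus 13.5 dpc, over more probe sets tested. The other alternatives that kept both sides gave 11 to 20 there and 19 to 28 for neonatal minus embryonic. With 15.5 dpc alone as the embryonic side, added after the data were seen, 9 members were called for neonatal minus embryonic. Across the alternatives run on all sides (the 2 added embryonic sides left out), 16 of the 21 neonatal minus embryonic calls held in each, those not holding in all being Sfrp5, Fgf3, Fgf7, Fzd4 and 1 probe set of Fzd10os. Of the 16 calls for 15.5 minus 13.5 dpc, 0 held in every alternative, since 0 members passed without the paternal-7 array of 13.5 dpc by limma, where 23 had an unadjusted p below 0.05. Of these 21 and 16 calls, 0 changed sign under any of the 16 alternatives, whereas 13 of 38 and 19 of 43 uncalled member differences did in at least 1, Fzd3 and Fgf9 between stages among them. For the duplication, 27 of 59 differences changed sign in at least 1 of 21 alternatives, those of Rspo2, Fgf3 and Wnt9a included. Cortex minus cerebellum, the duplication, and the duplication effect between stages had 0 members called by limma under each alternative run. The duplications were compared within contexts, so that comparison is paired by context, and the labels give no replicate numbers for any other block.

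With 2 arrays per context and 3 residual degrees of freedom, each call rests on how steady the difference between the 2 duplications was across contexts. No count here measures the spread between animals. Probe sets below the array median have only a bound, and the pseudocount sets the size of their log2 differences.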
